A study of Mus musculus with 2 samples.

Results

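The regions described here are open chromatin regions at gene start sites that were listed in only 1 of 2 libraries of mouse T helper 2 (Th2) cells. They were chosen by 2 criteria: the region overlaps no region of the other library's list, and its centre lies within 1 kb of a protein-coding start site. This selection on overlap gave 421 regions in replicate 1 and 751 in replicate 2, or 1172 of the 112448 regions in both lists together. The 421 were 3.33% of the 12636 promoter regions of replicate 1, and the 751 were 5.78% of the 12993 of replicate 2. Over all regions, 13.3% of the replicate 1 list and 26.5% of the replicate 2 list overlapped no region of the other. Away from promoters the shares were 16.5% and 32.1%. Overlap is what chose the regions, so these shares are descriptions and nothing is read from them.

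The assay, ATAC-seq, finds accessible DNA as the places where a transposase can cut and tag it. The cells were primary Th2 cells of strain C57BL/6NJ, the CD4 T cells that secrete Il4, Il5 and Il13, in 1 group with no treatment or control group. The labels name biological replicates 1 and 2, from separate biosamples under the same donor record, with no sex or age given. Whether different animals were used is not stated, so differences between the lists may be technical. The region names also carry the words ASTARR and insert, which no source used here explains, so it is not certain that the fragments came directly from the cells. A duration, given as hours, is part of the same names, and what it refers to was not established. Whether the cells had been stimulated before the assay was not established either. Of 7 T cell marker genes, 7 had a promoter region in both lists, as did 9 of 10 Th2 markers, 0 of 5 B cell, 0 of 5 mast cell and basophil, 1 of 6 myeloid, 1 of 5 NK and CD8 T cell, and 1 of 4 erythroid markers. Sequencing depth is not stated, and the genome-wide background recovered from the deposited values, in a counting unit that is not given, was 2.90 in replicate 1 and 3.43 in replicate 2. Its part in the unequal number of regions was not tested.

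A promoter is the stretch around a transcription start site where the polymerase is assembled. Many mammalian promoters lie in CpG islands, stretches rich in the CG dinucleotide that are open in most cell types, while promoters poor in CpG are more often open in certain cell types only. Many genes have several start sites, and each cell type may use one of them. Antigen receptor signalling in T cells induces AP-1, a dimer of Fos and Jun family proteins that binds TGANTCA.

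Windows of 5 strong regions, with and without a motif match, and of pairs of start sites within 2 genes are shown as examples of the DNA involved. Each line gives 100 bp around a summit on mm10, 5′ to 3′ on the strand of the gene, from the RefSeq copy of that build. Capitals mark matches, on either strand, to the 16 motifs searched.
Ect2l, replicate 1 only, chr10:18210916-18211015, minus strand: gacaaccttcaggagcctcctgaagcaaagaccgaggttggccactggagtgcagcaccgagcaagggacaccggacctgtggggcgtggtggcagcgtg
Ednrb, replicate 1 only, chr14:103843899-103843998, minus strand: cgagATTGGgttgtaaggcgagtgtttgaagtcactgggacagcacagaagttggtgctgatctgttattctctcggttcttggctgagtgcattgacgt
Myo15b, replicate 1 only, chr11:115881193-115881292, plus strand: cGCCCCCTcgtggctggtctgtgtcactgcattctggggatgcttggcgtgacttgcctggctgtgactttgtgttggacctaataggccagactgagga
Myo15b, shared, other start site, chr11:115859628-115859727, plus strand: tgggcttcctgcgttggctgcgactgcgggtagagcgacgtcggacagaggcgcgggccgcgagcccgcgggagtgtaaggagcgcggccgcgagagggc
Zfand4, replicate 2 only, chr6:116287060-116287159, plus strand: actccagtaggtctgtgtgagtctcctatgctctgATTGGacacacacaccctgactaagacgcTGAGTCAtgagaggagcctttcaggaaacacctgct
Tpd52, replicate 2 only, chr3:8993452-8993551, minus strand: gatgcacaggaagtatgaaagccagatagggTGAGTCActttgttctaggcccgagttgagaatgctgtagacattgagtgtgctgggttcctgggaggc
Rgs8, replicate 2 only, chr1:153653822-153653921, plus strand: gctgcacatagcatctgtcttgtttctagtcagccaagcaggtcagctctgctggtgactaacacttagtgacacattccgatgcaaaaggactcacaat
Ccdc186, replicate 2 only, chr19:56813556-56813655, minus strand: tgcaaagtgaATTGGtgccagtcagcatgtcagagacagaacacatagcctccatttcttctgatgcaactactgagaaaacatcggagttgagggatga
Ccdc186, shared, other start site, chr19:56822219-56822318, minus strand: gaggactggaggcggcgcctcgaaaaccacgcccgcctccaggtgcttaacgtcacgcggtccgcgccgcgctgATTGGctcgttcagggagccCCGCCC
The Zfand4 and Tpd52 windows each hold TGAGTCA, an AP-1 match, and the Ect2l and Rgs8 windows hold none of the 16 motifs. The Myo15b window seen in replicate 1 holds the core of the motif of CTCF, the protein that anchors chromatin loops. The shared Ccdc186 window holds a GC box (GGGCGG), bound by Sp and Kruppel-like factors. In both pairs the shared window is the richer in CpG: its ratio of observed to expected CpG was 1.26 at Myo15b and 1.12 at Ccdc186, against 0.36 and 0.20 in the windows of 1 replicate.

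Regions seen in 1 replicate were weak and narrow. Fold enrichment, the authors' enrichment of the summit over its surroundings, a ratio, had a median of 3.11 in the replicate 1 list (25th to 75th percentile 2.82 to 3.59, range 1.77 to 6.67). The median of the 12215 shared promoter regions of that library was 9.17. In the replicate 2 list the median was 3.16 (2.71 to 3.67, range 1.80 to 8.81), against 10.3 for its 12242 shared promoter regions. No region of either list reached the median of its library's shared promoter regions, and 3 of 421 and 2 of 751 reached the 25th percentile. Median width was 273 and 268 bp, against 1054 and 1086 bp for shared promoter regions. Median counts at the summit were 13 and 18, against 78 and 108, and the local background was at the genome-wide value for 49.4% and 34.1% of the regions. Median −log10 q was 2.87 and 3.59.

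**Figure D1:**
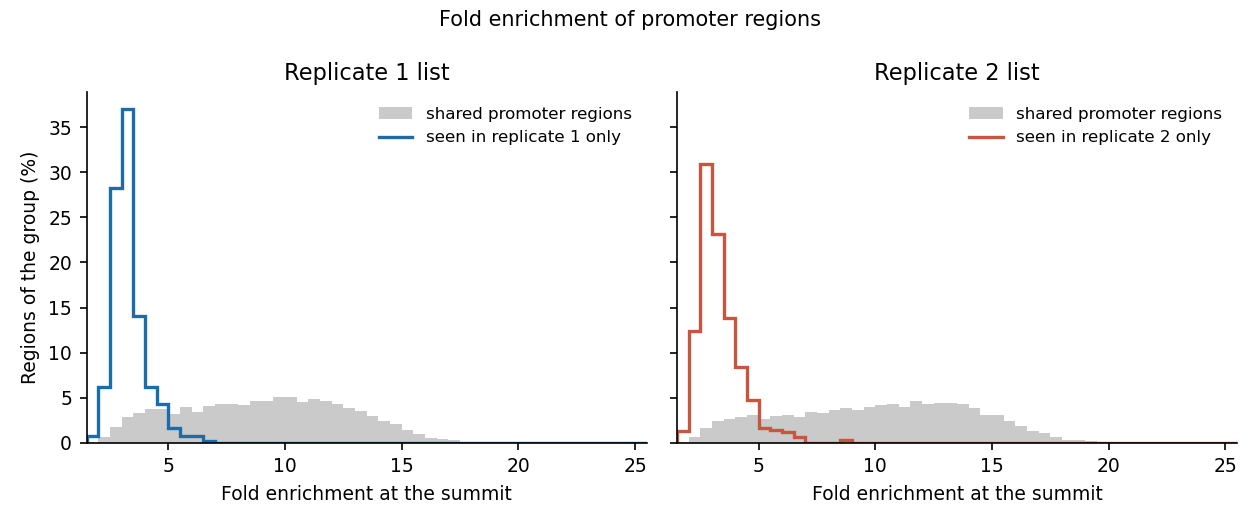
Fold enrichment at the summit (x axis) of promoter regions, as a percentage of each group per bin of 0.5 (y axis). Lines show regions seen in replicate 1 only (left, 421) and replicate 2 only (right, 751), and grey areas the shared promoter regions. Medians are 3.11 and 3.16 for the lines and 9.17 and 10.3 for the grey areas.

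The share of promoter regions seen in 1 replicate differed with fold. Of promoter regions with a fold of 2 to 3, 32.7% of replicate 1 (95% exact binomial interval 28.3 to 37.2) and 53.5% of replicate 2 (49.5 to 57.6) had no counterpart. At a fold of 4 to 5 the shares were 4.55% and 11.9%, and at 6 to 7 they were 0.440% and 1.87%. At a fold of 9 or more, 0 of 6321 and 0 of 7424 regions were seen in 1 replicate, which allows shares of up to 0.0583% and 0.0497%. Within each bin from 2 to 7 the replicate 2 share was the higher. These intervals and those below cover counting error only, and regions of 1 library are not replicates, so no test was made between the lists.

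**Figure D2:**
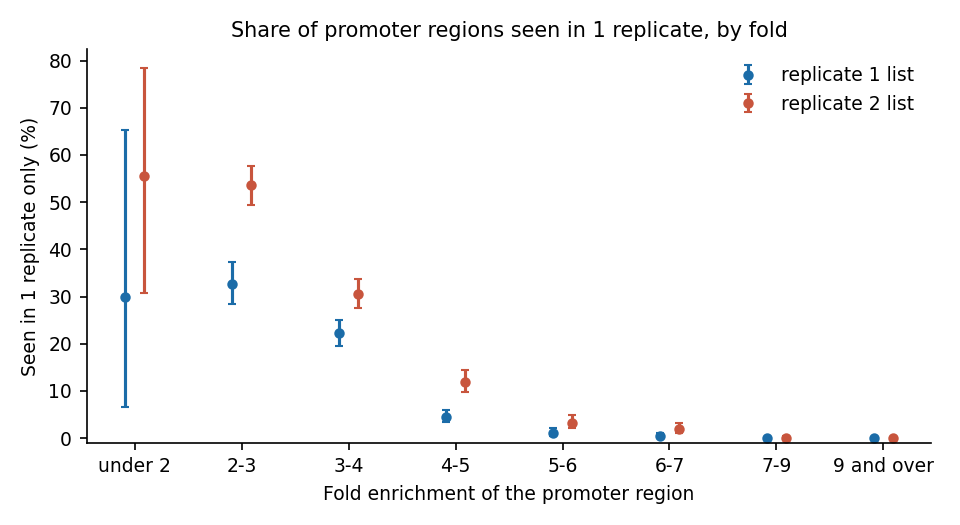
Percentage of promoter regions seen in 1 replicate only (y axis) by fold enrichment of the region (x axis), for the replicate 1 list and the replicate 2 list. Points are shares and bars 95% exact binomial intervals. Shares go from 32.7% and 53.5% at a fold of 2 to 3 down to 0 at 9 and over.

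Because weak regions differ from strong ones in many ways, shared promoter regions of the same library with a fold of 2 to 4 (1053 and 913 regions) are given as a reference beside the members. The members are not limited to these folds: 58 in replicate 1 and 138 in replicate 2 had a fold of 4 or more. Of the regions seen in 1 replicate, 35.2% in replicate 1 and 34.4% in replicate 2 covered the start site itself, against 51.1% and 49.9% of weak shared regions and 91.1% and 91.7% of all shared promoter regions. Weak shared regions were also the wider, at a median of 433 and 462 bp. Centres within 250 bp of a start site made up 49.2% and 47.3%, close to the 48.9% and 49.0% of the weak shared regions. The centre lay downstream of the start site in 62.9% (58.1 to 67.6) of the replicate 1 regions and in 53.9% (50.3 to 57.5) of the replicate 2 regions. For weak shared regions the downstream share was 60.9% and 63.4%. By annotation, 34.9% and 37.6% of centres lay in introns, 25.9% and 22.8% in untranslated exon sequence, 14.7% and 10.3% in coding exons and 24.5% and 29.4% outside protein-coding genes.

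**Figure D3:**
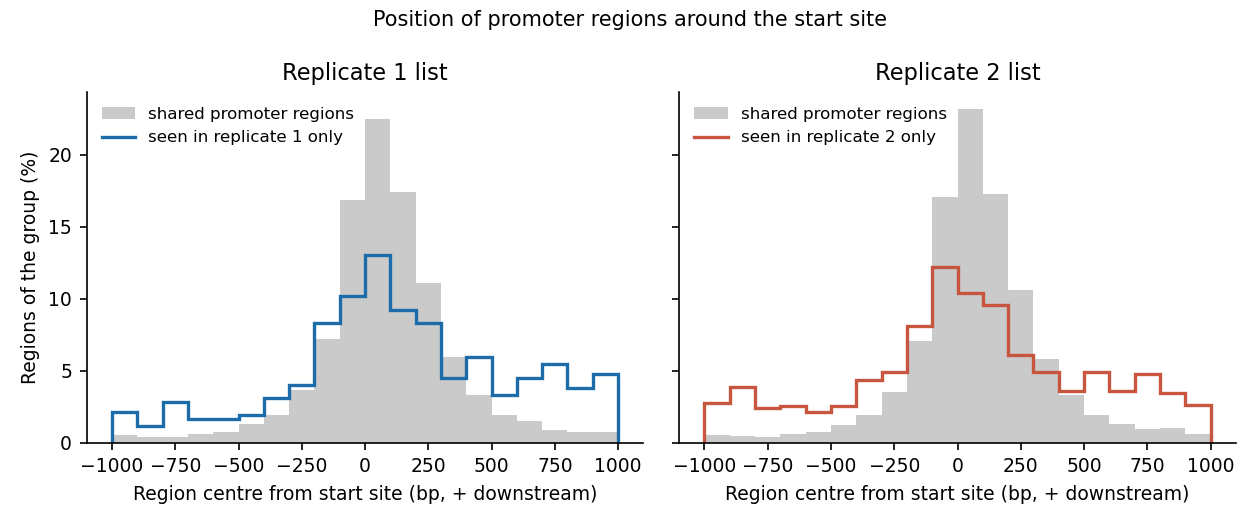
Distance of the region centre from the nearest start site in bp (x axis, positive is downstream), as a percentage of each group per bin of 100 bp (y axis). Lines are regions seen in 1 replicate and grey areas shared promoter regions; 49.2% and 47.3% of the former lie within 250 bp, against 72.5% and 72.7% of the latter.

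The lists differed in base composition. A start site was counted as CpG-rich when the 500 bp around it had at least 50% G and C and an observed over expected CpG ratio of at least 0.6. That held for 52.3% (47.4 to 57.1) of the replicate 1 regions, beside 54.9% of weak and 79.3% of all shared promoter regions. It held for 37.3% (33.8 to 40.8) of the replicate 2 regions, beside 56.8% of weak and 79.3% of all shared ones. With both groups at a fold of 3 to 4, it held for 57.2% of members and 56.4% of shared promoter regions in replicate 1. In replicate 2 these shares were 36.7% and 56.4%. The median CpG ratio over the region itself was 0.58 in replicate 1 and 0.43 in replicate 2, with 0.73 for the shared promoter regions of either library. In both lists the strongest members were the poorest in CpG. Among those with a fold of 4 or more, 34.5% of 58 in replicate 1 and 23.2% of 138 in replicate 2 had a CpG-rich start. Of shared promoter regions with a fold of 4 or more, 81.6% and 81.1% did. Members reached folds of only 6.67 and 8.81, while many of those shared regions were stronger, so these groups are not of like fold.

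AP-1 matches followed the same split. Of 16 motifs searched on both strands in the 200 bp at the summit, AP-1 (TGANTCA) was found in 4.75% of replicate 1 regions (20 of 421, interval 2.93 to 7.24) and in 11.5% of replicate 2 regions (86 of 751, 9.26 to 13.9). Weak shared promoter regions held it in 5.70% and 5.26%, and all shared promoter regions in 3.95% and 4.23%. With both groups at a fold of 3 to 4, it was in 3.72% of members and 5.70% of shared promoter regions in replicate 1. In replicate 2 these shares were 12.6% and 5.55%. At starts that were not CpG-rich the shares were 5.97% of 201 in replicate 1 and 15.5% of 471 in replicate 2, with 10.2% and 10.8% in shared promoter regions at such starts. The same order was seen outside promoters, where AP-1 matches were in 14.6% of regions seen in replicate 1 only, 29.8% of those seen in replicate 2 only, and 27.5% and 28.5% of shared regions. In the replicate 2 list the regions with a match included Zfand4 at 8.58-fold, Tpd52 at 6.78, the Toll-like receptor gene Tlr1 at 6.46, the kinase gene Aatk at 6.24 and Rgs12 at 5.91. In the replicate 1 list they included Pmch at 5.90 and Ifi204 at 5.39.

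**Figure D4:**
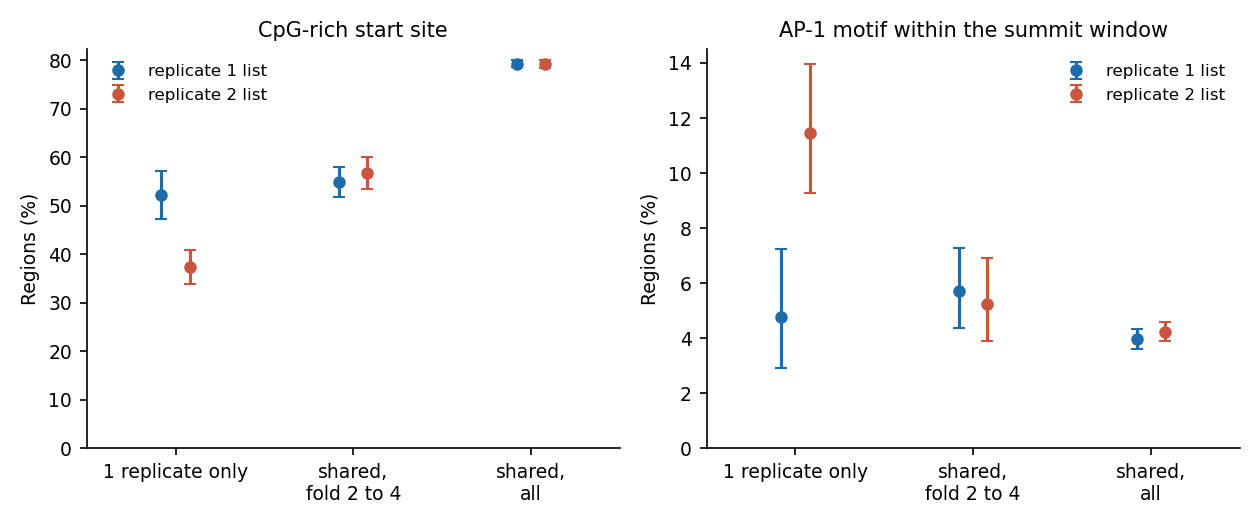
Percentage of regions (y axis) whose start site is CpG-rich (left) or whose 200 bp summit window holds an AP-1 match (right), for regions seen in 1 replicate only, shared promoter regions with a fold of 2 to 4 and all shared promoter regions (x axis). Points are shares and bars 95% exact binomial intervals; for regions of 1 replicate the CpG-rich share is 52.3% in replicate 1 and 37.3% in replicate 2, and the AP-1 share 4.75% and 11.5%.

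Other motifs are described beside the weak and all shared promoter regions in the same way. The GC box (GGGCGG) was found in 34.4% of replicate 1 and 195 of 751 replicate 2 regions, beside 37.6% and 37.5% of weak and 58.2% and 59.3% of all shared promoter regions. The ETS motif (CCGGAAG), bound by a large family of factors at promoters of widely expressed genes, was found in 2.38% and 3.46%, beside 3.04% and 4.05% of weak and 14.4% and 14.8% of all shared ones. The CCAAT box (CCAAT), bound by NF-Y, was found in 17.6% and 16.6%, beside 15.7% and 17.4% of weak and 29.2% of all shared ones in each library. The motif of GATA factors (AGATAA), the family of the Th2 regulator Gata3, was found in 6.18% (4.07 to 8.92) and 5.59% (4.06 to 7.49), beside 2.85% and 4.05% of weak and 2.32% and 2.47% of all shared promoter regions. Outside promoters 13.9% and 9.72% of regions seen in 1 replicate had it. The share of shared regions outside promoters is not given here, and promoter regions are no reference for them, so no excess is read. RUNX (TGTGGT), the motif of factors that act throughout T cell development, was found in 11.4% and 10.9%, beside 11.0% and 9.42% of weak and 7.93% and 7.56% of all shared ones. The TATA box (TATAAA) was found in 3.80% and 6.26%, beside 4.37% and 3.94% of weak and 2.42% and 2.40% of all shared ones. STAT (TTCNNNGAA), the motif of cytokine-activated factors, was found in 5.46% and 4.53%, beside 6.17% and 3.94% of weak and 3.94% and 4.20% of all shared ones. IRF (GAAANNGAA), the motif of interferon regulatory factors, was found in 4.99% and 5.46%, beside 4.84% and 4.93% of weak and 3.92% and 3.87% of all shared ones. NF-kB (GGGNNTTCC) was found in 11 and 27 regions, or 2.61% of the replicate 1 list, beside 4.46% and 4.16% of weak and 5.02% and 5.06% of all shared ones. The CTCF core (AGGGGGC) was found in 7.84% and 8.52%, beside 9.31% and 10.3% of weak and 12.2% and 12.1% of all shared ones. The E-box (CACGTG) was found in 3.56% and 4.39%, beside 3.99% and 4.60% of weak and 7.34% and 7.52% of all shared ones. Motifs of CpG-island promoters were rare in both lists, of 421 and 751 regions. CRE (TGACGTCA) was found in 1 and 2, NRF1 (GCGCATGCG) in 2 and 1, YY1 (AAGATGGCG) in 1 and 1 and ZBTB33 (TCTCGCGAG) in 0 and 0. In that order, 316 and 333, 300 and 311, 301 and 310, and 149 and 146 of the 12215 and 12242 shared promoter regions held them. In replicate 1 the shares were 0.238%, 0.475%, 0.238% and 0%, beside 2.59%, 2.46%, 2.46% and 1.22% of all shared ones. Weak shared promoter regions also held them rarely (6 and 6, 3 and 4, 5 and 3, and 0 and 1), so the low counts are not particular to the lists. A match is a run of letters and not a measured binding site.

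Whether the gene had a promoter region common to both replicates depended on the annotation and on how sharing was defined. In replicate 1, 291 of 421 regions (69.1%, interval 64.5 to 73.5) lay at genes with no shared region within 1 kb of any of their start sites, and in replicate 2, 463 of 751 (61.7%, 58.1 to 65.1). The majority was lost with the comprehensive annotation (43.4% and 36.0%) and where sharing needed an overlap of at least 50% of the region (48.7% and 45.6%), and in replicate 2 also for centres within 2 kb (42.6%). Over all 21851 protein-coding genes, 57.4% had a shared promoter region. Genes with a single start site made up 128 and 243 of these regions without a shared promoter. A shared region at the same start site was found for 87 regions in replicate 1 (20.7%) and 157 in replicate 2 (20.9%). In replicate 1, 56 of the 87 had it at that start only, so this group overlaps the next. A shared region at another start site of the gene was found for 74 (17.6%) and 183 (24.4%), or 27.7% of the 267 and 39.9% of the 459 regions at genes with more than 1 start site. With the comprehensive annotation, which lists more start sites, these shares of all regions were 49.9% and 57.7%.

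Regions with a shared region at another start site of the gene were seldom at its annotated 5′ end. They lay there in 13 of 74 cases in replicate 1 and 28 of 183 in replicate 2. Over all members it was 202 of 421 and 370 of 751, and over shared promoter regions 6108 of 12215 and 6157 of 12242. Those groups include genes with a single start site, so they are not a like reference. The remaining cases need not be internal starts: the single start of Tcea3, Xkrx and Ifi204 is not marked as the 5′ end either. In the 74 and 183 cases the start was not CpG-rich in 60.8% and 72.1%. Where the gene had several shared regions at other start sites, the one of highest fold was taken. It lay a median of 6.41 kb away in replicate 1 and 8.28 kb in replicate 2. Its fold was higher than that of the region seen in 1 replicate, in both libraries, in 67 of 74 and 174 of 183 cases. The choice of the strongest shared region and the low folds of the members favour this outcome, so nothing is read from it. At Myo15b, a myosin gene, the region seen in replicate 1 had a fold of 4.27 and the shared region 21.9 kb away 7.98 and 10.1. At Rab3b, a GTPase gene of vesicle release, and Cav2, which encodes the coat protein caveolin 2, the shared region was 0.992 and 1.00 kb away and also lay at the start site nearest to the region of replicate 1. Gm12216, Rnf144b and Zmynd8, which encodes a reader of histone marks, were also among the strongest, with Gata2, at folds of 4.24, 4.13 and 4.00, and 3.98 for Gata2. At Gata2 the shared region was the weaker, with 2.99 and 2.64, while Rnf144b had shared regions on either side of its fold: 3.33 and 3.16 at another start site 72.1 kb away, and 4.40 in replicate 1 at the same start site, 187 bp from the region.

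In replicate 2 the strongest region with a shared one elsewhere was in an intron of Zfand4, a zinc finger gene, with 37 counts and a fold of 8.58, while the shared region 22.8 kb away had 8.33 and 11.2. Tpd52, a gene of vesicle traffic, had 6.78-fold enrichment in an intron, 10.9 kb from a shared region with 10.7 and 11.0. Ttc3, a ubiquitin ligase gene, had 6.66 over an untranslated exon, 12.5 kb from a shared region with 8.09 and 8.68. Ccdc186 had 6.31 over its internal start, 8.43 kb from a shared region with 11.0 and 13.7. Dgcr6 had 6.25 at its 5′ end, 13.7 kb from a shared region with 11.5-fold in replicate 2. The chromatin gene Sfmbt1, Rgs12, which limits G protein signalling, and Xkr6 had folds of 6.06, 5.91 and 5.78, with shared regions 50.5, 49.5 and 189 kb away. Of these 8 shared regions, the one at Xkr6, at 5.23 and 4.52, was weaker than the region of replicate 2 in both libraries, and the one at Zfand4 in replicate 1. The starts nearest to the replicate 2 regions differ in annotated transcript support, where level 1 is the best. It was 1 at Ccdc186, Dgcr6, Rgs12 and Xkr6, 3 at Zfand4 and 5 at Tpd52, with no numbered level at Ttc3 and Sfmbt1.

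The strongest regions at genes with no shared promoter region came from varied gene classes. In replicate 1 the highest fold, 6.67 with 25 counts, was 100 bp upstream of Ect2l. A region of 757 bp over an internal start of Ednrb, the endothelin receptor B gene, had 6.44 with 29 counts. Tph1, which encodes the enzyme that starts serotonin synthesis outside the brain, had 6.16, and Pmch, the precursor of melanin-concentrating hormone, 5.90. Chemosensory receptor genes gave 3 of the 8: Olfr312 with 6.41, Olfr1385 with 5.64 and Vmn1r39 with 5.64. Over these families, 6 of 1134 olfactory (0.529%) and 2 of 331 vomeronasal receptor genes (0.604%) had a region in the replicate 1 list, shares below the 1.89% of all protein-coding genes. Ifi204, an interferon-inducible gene, had 5.39. Also among the 12 highest were Prox1, the regulator of lymphatic vessel identity, and Eda2r, an ectodysplasin receptor, with 5.39 each, and the neuronal splicing gene Nova1 with 5.13. Summit counts of these genes ran from 19 to 29, and the local background was the genome-wide 2.90 except at Ednrb, with 3.66. Reads from Olfr, Vmn1r and Ifi genes could have been divided among near-identical copies, since the treatment of reads with several matches is not stated.

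In replicate 2 the highest fold, 8.81 with 38 counts, lay 748 bp upstream of Lyzl1, a lysozyme-like gene, where 79.1% of the bases are repeats. Adam8, a metalloprotease gene of leukocytes, had 6.58 with 55 counts over its 5′ end, and −log10 q of 26.5. Rgs8 had 6.56, Ifi209 6.55, Tlr1 6.46, Tuft1 6.32, the predicted gene Gm39566 6.29 and Aatk 6.24. Ifi209 and Ifi204 belong to the same interferon-inducible family on chromosome 1, and each was seen in a different replicate.

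The widest regions were, in replicate 1, those at Meis1, a homeobox gene of blood stem cells, with 1211 bp, Ryr2, the calcium release channel of heart muscle, with 947 bp, the growth factor receptor gene Fgfr2 with 848 bp, Frmd4b with 831 bp and the axon guidance gene Robo3 with 819 bp. All 5 covered a CpG-rich start, at folds of 3.16 to 3.67. In replicate 2 they were at Ccl27a, a skin chemokine gene, with 1177 bp, Tbkbp1 with 1133 bp, 5430427O19Rik with 1085 bp, Aatk with 1024 bp and Il12a, which encodes a subunit of interleukin 12, with 1020 bp. Of these 5 only Tbkbp1 had a CpG-rich start.

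T cell genes were counted in 4 lists. Of their 146 genes (Th2, other helper lineages, T cell identity with antigen receptor signalling, and activation), 0 had a region seen in replicate 1 only and 11 (7.53%) had 1 seen in replicate 2 only, beside 1.89% and 3.28% of all protein-coding genes. The lists were chosen with earlier results of these data known, and the difference between replicates was not tested. The share over all genes includes large families with few regions. Among them are 2009 predicted and Riken genes (0.348% in replicate 1 and 1.64% in replicate 2) and 1134 olfactory receptor genes (0.529% and 0.176%). A list share above that of all genes, here and below, is therefore not read as an excess. The 13 regions at those 11 genes had folds of 1.94 to 4.29 and a median of 32 counts, beside 18 over the whole replicate 2 list. Their median local background was 7.66, beside 4.22, and 10 of the 13 had a shared region within 5 kb.

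Among Th2 genes, Il10, which encodes an anti-inflammatory cytokine that Th2 cells can secrete, had a region of 231 bp in an intron, centred 852 bp downstream of the start, with 41 counts over a background of 13.0, and a fold of 3.01. A shared region with a fold of 6.42 lay 563 bp from it, too far from the start to count as a promoter region. Il3, a cytokine gene that acts on mast cells and basophils, had a region over its start site with 32 counts and a fold of 3.95, 1574 bp from a shared region with 4.17. Neither gene had a shared promoter region. Il1r1, the interleukin 1 receptor gene, had a region at each of 2 start sites, with folds of 3.80 and 2.52. Cd40lg, which encodes the ligand through which T cells help B cells, had 2 regions at its single start, with folds of 3.44 and 2.19 and 28 and 18 counts.

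At Lef1, Nfkb1, Nr4a3 and Cd5 the region flanked a stronger shared one. Lef1, a factor of naive T cells, had 63 counts over a background of 20.5 and a fold of 2.98, 801 bp from a shared region with 6.41. Nfkb1, the p50 subunit of NF-kB, had 2.19 at 416 bp from a shared region with 4.47. Nr4a3, an early gene of antigen receptor signalling, had 54 counts over 27.3 and a fold of 1.94, 323 bp from a shared region with 3.94. Cd5, a surface protein that limits receptor signalling, had 38 counts over 19.1 and a fold of 1.94, 206 bp from a shared region. Foxp1, a factor that keeps T cells quiescent, had 41 counts and 3.48 at an internal start. Nfatc2, the calcium-responsive factor NFAT1, had 3.37 at a start upstream of a shared region 11.2 kb away.

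Beyond those lists, 9 of 82 interleukin and interleukin receptor genes had a region in replicate 2 and 2 of 82 in replicate 1, or 11.0% and 2.44%, beside 3.28% and 1.89% of all protein-coding genes. The replicate 2 regions included Il23a, which encodes a subunit of interleukin 23, with 46 counts and 6.23-fold enrichment over its start and an AP-1 match, and the interleukin 1 antagonist gene Il1rn with 5.51. Il11ra1 had 3.82 with 42 counts, and Il34, Il17d and Il12a had 2.86, 2.85 and 3.18. In replicate 1 they were Il19 with 3.33 and Il31ra with 2.82, at 12 and 10 counts. This family was chosen by its names, and Il23a and the others were picked after their values were seen.

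Genes of other tissues had regions in both lists. Of the 249 genes in 5 lists of other blood lineages, nervous system, epithelium with muscle, liver and connective tissue, germ line and developmental transcription factors, 13 (5.22%) had a region seen in replicate 1 only and 16 (6.43%) had 1 seen in replicate 2 only, beside 1.89% and 3.28% of all protein-coding genes. As with the T cell lists, these shares are not read as an excess. Median counts were 15 and 14, and 11 of 13 and 11 of 17 regions lay at genes with no shared promoter region. In the developmental list of 56 genes, 4 (7.14%) had a region in replicate 1 and 8 (14.3%) in replicate 2, beside the same 1.89% and 3.28%. The replicate 1 genes were Hoxb1 with 3.85, Six2 with 3.80, Six3 with 2.90 and Isl1 with 2.56. The replicate 2 genes were Gata4 with 4.64, Hoxa13 with 3.51, Six2 with 3.16, Nkx6-1 with 2.94 at each of 2 regions, Twist1 with 2.94, Sox10 with 2.84, Lhx1 with 2.42 and Irx5 with 2.31. These genes specify body plan, heart, kidney, neural and pancreatic lineages. Of 39 Hox genes, which set position along the body axis, 5 (12.8%) had a region in each list, beside 1.89% and 3.28% of all protein-coding genes. No gene was in both, which is not read as a result with so few genes. None of those 10 had a shared promoter region, while 14 of the 39 did.

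Nervous system genes gave 5 of 50 (10%) in replicate 1, beside 1.89% of all protein-coding genes, and 2 of 50 (4%) in replicate 2, near the 3.28% of all. In replicate 1 they included the calcium channel gene Cacna1e with 4.27, the neurofilament gene Nefl with 3.85, Elavl3 with 2.61 and the serotonin transporter gene Slc6a4 with 2.51. In replicate 2 they were Nefm, another neurofilament gene, with 2.94 and the sodium channel gene Scn2a with 2.71. Genes of other blood cells gave 3 of 53 (5.66%) in each list, beside 1.89% and 3.28% of all genes. Among them were Gata2, Tal1 and Fcer2a in replicate 1, with 3.98, 2.80 and 2.75, and Klrk1 and Cd22 in replicate 2, with 3.61 and 3.39. Gata2 and Tal1 are factors of blood progenitors and also had a shared region at another start. Of 50 genes of epithelium, muscle, liver and connective tissue, 1 (2%, near the 1.89% of all genes) had a region in replicate 1, Pdgfrb with 3.05. In replicate 2, 3 (6%, beside 3.28%) did: Tagln, Cldn3 and Cldn4 with 5.62, 3.17 and 3.07. Of 40 germ line genes 0 had a region in either list, which in a list this small is near the 1.89% and 3.28% of all genes. Of 28 housekeeping genes, 28 had a shared promoter region and 1 (3.57%, near the share of all genes), Rab7, also had a region in replicate 2, with 5.04 at an internal start. Of 85 cytosolic and 78 mitochondrial ribosomal protein genes, 0 had a region in either list. In families of this size that is not read as a difference from the 1.89% and 3.28% of all genes.

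Neighbouring shared regions were nearer in replicate 2. The gap to the nearest shared region of the same list had a median of 11762 bp in replicate 1 and 5348 bp in replicate 2. It was at most 5 kb for 34.4% (29.9 to 39.2) and 48.9% (45.2 to 52.5), and over 50 kb for 25.4% and 11.5%. The nearest shared region was itself a promoter region in 43.0% and 46.6% of cases, and its median fold was 5.74 and 6.78. At genes with no shared promoter region the median gap was 26493 bp in replicate 1 and 10306 bp in replicate 2, and the region was isolated by over 50 kb in 35.1% and 17.7%. Where the gene had a shared promoter region, the median gap was 576 and 604 bp. Such gaps follow in part from how the groups are defined.

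**Figure D5:**
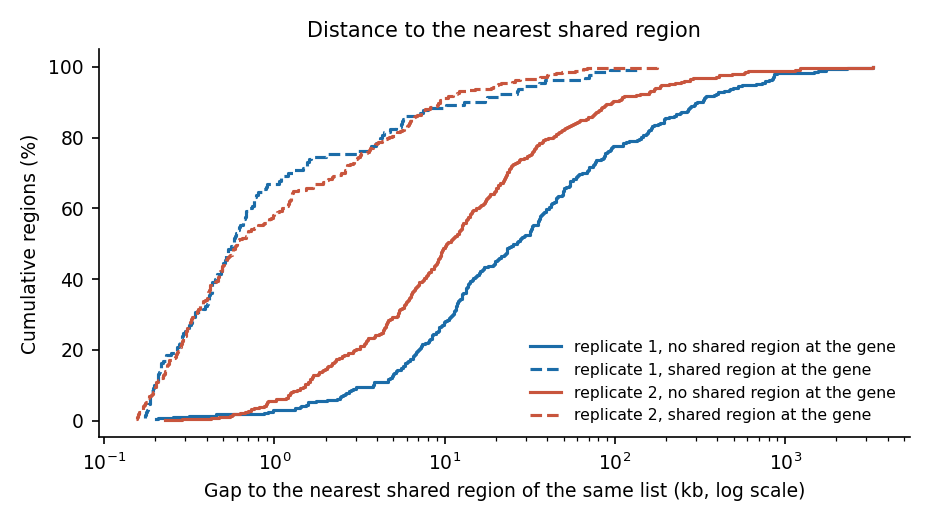
Cumulative percentage of regions seen in 1 replicate (y axis) by the gap to the nearest shared region of the same list in kb (x axis, log scale). Solid lines are genes with no shared promoter region and broken lines genes with one; among the former the replicate 2 line lies to the left of the replicate 1 line, with medians of 10306 and 26493 bp.

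Absence from the other list did not always mean absence from the neighbourhood. A region of the other library lay within 500 bp of 95 replicate 1 regions (22.6%) and 153 replicate 2 regions (20.4%), and within 100 bp of 28 and 26. In 68 of the 95 and 121 of the 153 the nearest such region was a shared one. Genes with a region of each list numbered 40 of the 1089 genes with any, or 9.69% of the 413 genes of replicate 1 and 5.59% of the 716 of replicate 2. Over all protein-coding genes, 3.28% had a region of replicate 2 and 1.89% a region of replicate 1. No test was made between these shares. Within the 40 genes the regions lay at the same start site in 23 and under 500 bp apart in 25, with a median gap of 268.5 bp. Of the 40 genes, 27 had no shared promoter region.

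Among these pairs, Tcea3, a transcription elongation gene, had folds of 3.34 in replicate 1 and 4.14 in replicate 2, with 31 bp between the regions. Tnfaip2 had 3.84 and 3.39 with a gap of 70 bp, Pygo1, a Wnt pathway gene, 3.08 and 3.39 with 83 bp, and Rnf217 3.08 and 3.16 with 99 bp. Xkrx had 3.33 and 3.39 with 101 bp, the synapse gene Slitrk5 4.87 and 3.16 with 143 bp, and Six2, a factor of kidney progenitors, 3.80 and 3.16 with 163 bp. Zfp711, Stox2 and Mn1 had gaps of 210, 229 and 532 bp, and folds of 2.82 to 3.33 in replicate 1 and 2.94 to 3.16 in replicate 2. At Ugt1a6b the regions were 2 bp apart, with 3.08 and 3.84. In these 11 genes, other than Tnfaip2, both regions were nearest to the same start site. Clcn3, P2ry10b, Tpd52 and Adgrb1 differed in start site, with gaps of 905, 1261, 29055 and 46638 bp.

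Folds of regions near the limits of the rule are given for description. Just inside 1 kb were Arhgap29 and Il31ra in replicate 1, with centres 1000 and 996 bp away and folds of 2.82 each, and Pou2f3 and 2610021A01Rik in replicate 2, at 1000 bp with 3.39 and 2.71. Just outside were Egln1 and Lsm2 at 1003 and 1004 bp, with 4.31 and 3.22, and Dennd2d and H2-DMa at 1001 and 1004 bp, with 1.92 and 3.40. Of regions that overlapped the other list by the fewest bases, Banf1 (4 bp) and Pde10a (9 bp) in replicate 1 had folds of 2.14 and 2.90, and Gm8369 (1 bp) and Foxa1 (2 bp) in replicate 2 had 3.67 and 2.26. Foxl2 in replicate 1 and Nr2f1 in replicate 2 missed the other list by 1 bp, with 2.54 and 4.59.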

How the data were processed

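ATAC-seq regions of 2 Th2 libraries were analysed, 1 list each on mm10. Per the labels, each list belongs to 1 library. The region names hold the words masked, dedup and sorted, which no source explains further. They also hold a duration, given as hours, whose meaning was not established. Aligner, peak caller and versions: not given in the sources used here. The deposited fold enrichment is a ratio at the summit. The authors also deposited, per region, a −log10 p-value and a −log10 q-value. The score in the authors' lists equals −log10 q times 10 up to a cap of 1000 and was not used further. Depth is not stated.

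The members, gene lists and motifs were chosen with earlier results of these data known. A region was shared when it overlapped the other list by at least 1 bp. Start sites (41438) were those of protein-coding transcripts in the GENCODE M21 basic annotation, and each region was given to the gene of its nearest start site. Sequence came from the RefSeq copy of GRCm38. Summit counts and backgrounds were recovered from fold and −log10 p under a Poisson model with a pseudocount of 1, within 0.001, for all 421 and 751 members. The unit counted (reads, fragments or cuts) is not stated. Overlap, distance and count recovery were tested on simulated data. Named genes were, per list, the 12 of highest fold, the 5 widest, members at genes of the 10 lists (the 30 of highest fold), the 15 genes in both lists with the highest lower fold, the 8 strongest with a shared region at another start site and the 8 strongest at genes without a shared promoter region, and members at the limits of the rule. Some genes that the rule names are not reported here. Cd5 and Il23a, Il1rn, Il11ra1, Il34, Il17d and Il19 fall outside these and were named after their values were seen. Name patterns of 2 gene families (ribosomal proteins and G protein coupled receptors) were corrected after values were seen. Python 3.11.15, numpy 2.4.6, pandas 2.3.3, scipy 1.17.1 and pysam 0.24.0 were used. No test was made, since the rule used the only comparison of the design.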

Additional observations from a re-analysis of the deposited data

How the results depend on the processing

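No paired analysis was possible because the design has 1 group, and leaving out a replicate was not possible because each list is defined against the other. Of 8 alternatives, 1 (all transcripts of protein-coding genes in the comprehensive annotation) was chosen after seeing the data. The number of regions moved by over 1.5 times for centres within 2 kb (642 in replicate 1 and 1276 in replicate 2), for −log10 q of at least 3 (174 and 460), for the comprehensive annotation (708 and 1392), and in replicate 1 where sharing needed an overlap of at least 50% of the region (688). The share at genes with no shared promoter region, 69.1% and 61.7%, was 84.8% and 74.7% for centres within 500 bp, 54.2% and 42.6% within 2 kb, 81.2% and 81.1% for the 5′ end of the gene as the sole start site, 48.7% and 45.6% where sharing needed that overlap, 81.3% and 72.7% where regions within 500 bp counted as shared, and 43.4% and 36.0% with the comprehensive annotation. It was thus under 50% in both lists under the last annotation and under the overlap requirement. The share with a shared region at another start site, 17.6% and 24.4%, was 49.9% and 57.7% with the comprehensive annotation. Summits in place of centres left both results of both lists within counting error. The median CpG ratio was lower in replicate 2 than in replicate 1 under all 8 alternatives. Depth limits what an unlisted region means: with median summit counts of 13 and 18, absence from the other list does not show that the DNA was closed there.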
